A study of Mus musculus with 8 samples.

Results

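Border-associated macrophages (BAMs) are the resident macrophages of the meninges, the perivascular spaces and the other surfaces that bound the central nervous system. They clear proteins and debris through scavenger receptors such as the mannose receptor *Mrc1*, and part of them present antigen on major histocompatibility complex (MHC) class II. Microglia are the macrophages of the parenchyma, carry the purinergic receptor *P2ry12* and the surface protein *Tmem119*, and depend on the transcription factor *Sall1*. The optic nerve (ON) holds both kinds of macrophage, since meninges sheathe it along its length.

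BAMs were selected nucleus by nucleus with marker genes. A barcode with at least 1000 unique molecular identifiers (UMIs, counted RNA molecules) and under 5% of them from mitochondrial genes was kept. A kept barcode was a BAM when at least 2 of the 4 macrophage genes *Csf1r*, *Inpp5d*, *Dock8* and *Ptprc* were detected, when *Mrc1*, *F13a1* and *Cd163* together held at least 2 UMIs, when *P2ry12* held none, and when the oligodendrocyte (OL) gene *St18* held fewer than 3. This rule found 139 BAMs among 40845 retained barcodes, or 0.340% of them. Microglia, the comparison group, passed the same limits on depth, macrophage genes and *St18*, had *P2ry12* or *Cx3cr1* detected and held at most 1 UMI of the 3 BAM markers, which left 1295 nuclei.

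The nuclei came from single-nucleus RNA sequencing (snRNA-seq) of mouse ONs in 8 libraries, each a pool of 6 nerves from 3 female mice at P120 (postnatal day 120). In 4 control libraries (replicates 1 to 4) the mice were *Piezo2*f/f and cre-negative, with both *Piezo2* alleles floxed. The 4 libraries labelled cKO (replicates 10 to 13) came from *Olig2-cre;Piezo2*f/f mice, which carry the same floxed alleles and a cre driven by *Olig2*, a gene of the OL lineage, so BAMs were not the targeted cells. The study states that this cre sits in the only exon of *Olig2* and that its carriers are heterozygous for that gene. The cre-negative controls are not, so the dose of *Olig2* and the loss of *Piezo2* cannot be told apart here. The comparison was made to find what the loss of *Piezo2*, a mechanosensitive ion channel, from OLs changes in the nerve. Since each library pools animals, p-values measure the spread between pools.

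Total counts per library ran from 39628926 to 56541132 UMIs, and retained barcodes had a median of 2473 to 3413 UMIs. In nuclei with at least 3 *St18* UMIs, which are OLs, *Piezo2* was at 350 to 453 CPM (UMIs of a gene per 1000000 UMIs of the group) in control libraries and at 478 to 517 CPM in the libraries labelled cKO, and so was not lower in the latter. These counts cover the whole gene, whereas the knockout removes a few of its exons, so they do not check the deletion or the labels. Between 3 and 14 barcodes were shared by each of the 28 pairs of libraries, and 2 BAM barcodes also occurred as retained barcodes of another library. Library control 3 stood apart by pituitary hormone RNA, at 7849 CPM in its empty droplets (barcodes of 200 to 500 UMIs) against 6.95 to 585 CPM in the other 7.

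The marker genes that made the selection are given here as a description. *Mrc1* (chromosome 2, 14234151 to 14336926, plus strand, GRCm39) was detected in 124 of the 139 BAMs. *F13a1*, the A subunit of coagulation factor XIII (chromosome 13, 37051152 to 37234277, minus strand), was detected in 104. *Cd163*, the receptor that takes up haemoglobin bound to haptoglobin (chromosome 6, 124281606 to 124307560, plus strand), was detected in 50. All 3 markers were found together in 42 BAMs, 2 of them in 55 and 1 of them in 42. Of the BAMs with a single marker, 30 had *Mrc1* and 12 had *F13a1*.

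*Mrc1* stood at 2136, 773, 1058 and 917 CPM in the BAMs of control libraries 1 to 4 and at 1315, 581, 1195 and 1053 CPM in those of libraries 10 to 13. *F13a1* ran from 470 CPM in control 4 to 2216 CPM in control 1, and was at 490 CPM in library 11. Control 4 and library 11 were thus the 2 libraries with little *F13a1*, and both were also lowest in *Cd163*, at 47.0 and 36.3 CPM against 237 to 870 CPM in the other 6. Pooled over the libraries, *Mrc1* was at 1133 CPM in BAMs, 7.41 CPM in microglia, 17.2 CPM in all other retained barcodes and 11.6 CPM in empty droplets. *Cx3cr1*, the fractalkine receptor, which the rule asked for only in microglia, was at 224 to 495 CPM in BAMs and 650 to 982 CPM in microglia.

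BAMs held 1003 to 28781 UMIs each, with a median of 2475 against 2088 in microglia, and a median of 1615 detected genes. Some nuclei lay right at the limit on marker UMIs. There were 31 BAMs with exactly 2 marker UMIs, and 48 nuclei missed selection by holding 1. Those of the 48 with *Cx3cr1* detected also counted as microglia. The scavenger adaptor *Dab2*, which the rule did not read, was at 216 CPM in the 48 nuclei just outside, 364 CPM in the 31 just inside and 934 CPM in the 108 BAMs with 3 or more marker UMIs, against 45.2 CPM in microglia. *Rbpj*, the DNA-binding effector of Notch signalling, took the same order, at 356, 1231 and 1884 CPM against 180 CPM. The microglial gene *Nav3*, in contrast, was at 159 CPM just outside, 18.7 CPM just inside and 27.4 CPM further in, against 1100 CPM in microglia.

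The condition on *P2ry12* removed more nuclei than the rule kept. With every other condition met, 143 nuclei had at least 1 *P2ry12* UMI. They had a median of 3475 UMIs. Of genes the rule did not read, *Dab2* was at 679 CPM in them, against 814 CPM in BAMs and 45.2 CPM in microglia, and *Rbpj* at 1378 CPM, against 1746 and 180 CPM. *Tmem119* was at 24.2 CPM in them, against 13.8 CPM in BAMs and 138 CPM in microglia. *Nav3* was at 131 CPM in them, against 25.6 and 1101 CPM, and so lay above its level in BAMs. The limit on *St18* removed another 64 nuclei, which had a median of 7311.5 UMIs. Just inside that limit, 10 BAMs held 2 *St18* UMIs. The 139 selected nuclei are thus those in which *P2ry12* was not seen at this depth.

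Fibroblast RNA moved with a few large nuclei. The 12 fibroblast markers summed to 193 to 11143 CPM in the BAMs of single libraries and to 1489 to 4988 CPM in microglia, a range that lies inside that of BAMs. Pooled over libraries they were at 6610 CPM in BAMs, 3285 CPM in microglia and 3601 CPM in other retained barcodes. BAMs had the higher level in 4 of 8 libraries. In 13 of 139 BAMs the markers held over 5 of every 1000 UMIs, namely in 5 nuclei of control 3, 4 of library 13, 2 of library 12 and 1 each of control 1 and library 11. The same limit was passed by 59 of 1295 microglia and by 3896 other retained barcodes. The 13 BAM nuclei had a median of 9352 UMIs and held 28.6% of all BAM counts. None of the 139 BAMs was among the nuclei with the highest Scrublet doublet scores, taken as 2.95% to 5.62% of a library at a preset rate of 0.8% per 1000 barcodes. Whether they are mixed droplets was not tested.

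**Figure D1:**
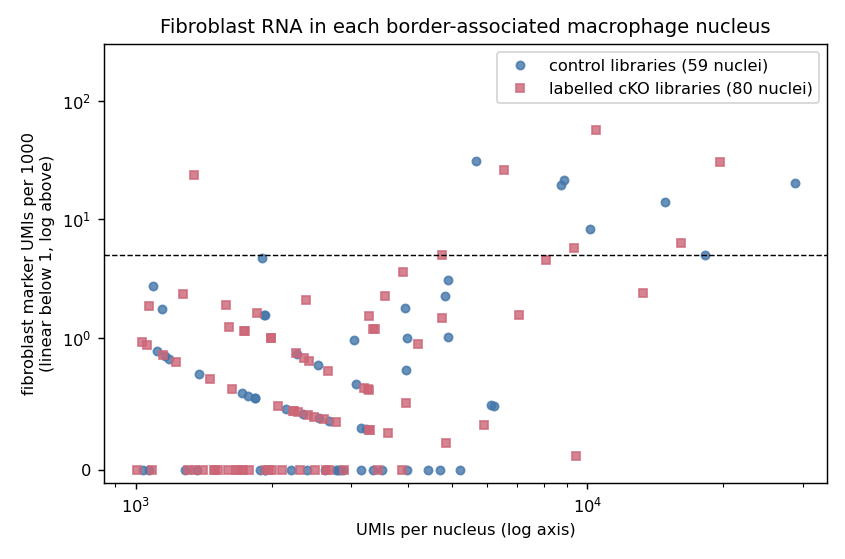
Each point is one of the 139 BAM nuclei, with its UMI count on a log axis and its fibroblast marker UMIs per 1000 on an axis that is linear below 1 and log above, circles for control libraries and squares for libraries labelled cKO. The 13 nuclei over the dashed limit of 5 per 1000 come mostly from the right of the plot, with a median of 9352 UMIs.

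BAMs made up a similar share of the nuclei in both genotypes, within a wide spread between libraries. Their number was 15, 5, 30 and 9 in control libraries 1 to 4 and 19, 13, 15 and 33 in libraries 10 to 13. As a share of retained barcodes this was 0.257%, 0.128%, 0.645% and 0.244% against 0.398%, 0.185%, 0.348% and 0.497%. The lowest and the highest share were both control libraries, so the groups overlapped over the whole range of the libraries labelled cKO. The exact 95% binomial interval of the share, which covers counting error only, ran from 0.0415% to 0.298% in control 2 and from 0.436% to 0.92% in control 3.

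The mean share was 0.318% ± 0.225 (SD, n = 4) in control and 0.357% ± 0.130 in the libraries labelled cKO (difference 0.0386 percentage points, exact two-sided permutation test over 70 regroupings, p = 0.8, adjusted p = 1 over 2 tests). Among BAMs and microglia together, BAMs took 9.62% ± 5.55 in control and 9.76% ± 3.82 in the libraries labelled cKO (difference 0.139 percentage points, exact permutation p = 1, adjusted p = 1). The smallest p that this design can give is 0.0286. Both differences changed sign when single libraries were left out, the second from -1.87 without control 2 to 2.61 without control 3. A share of nuclei cannot tell fewer BAMs from more nuclei of other kinds.

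**Figure D2:**
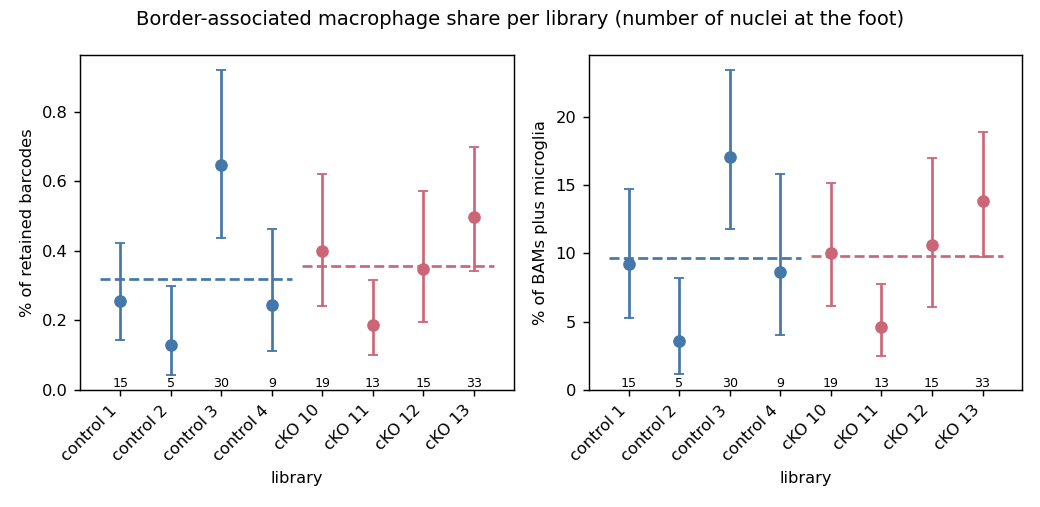
BAMs as a percentage of retained barcodes (left) and of BAMs plus microglia (right) in each library, control in blue and labelled cKO in red, with exact 95% binomial intervals, the group mean as a dashed line and the number of BAMs at the foot. The points of both genotypes overlap, from 0.128% in control 2 to 0.645% in control 3.

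BAMs differed from microglia of the same nerves in 609 genes. Named genes here needed at least 50 CPM and 1 direction in every tested library. Among them *Ms4a4a*, *Rgs18*, *Pf4* and *Msr1* lay furthest above microglia and *Nav3*, *Atp8a2* and *Capn3* furthest below, after *Tspan18*, which rests on zeros. Counts were summed per library and group in the 6 libraries with at least 10 BAMs (control 1 and 3, and all 4 labelled cKO), and edgeR's quasi-likelihood test was run with the library as a block. The genes of the selection rule were left out of the test. Calls needed an adjusted p below 0.05 together with a log2 fold change beyond 0.5 in size. Of 6337 genes tested, 278 (4.39%) were called higher in BAMs and 331 (5.22%) lower, or 609 (9.61%) in either direction, and the median log2 fold change of all genes was -0.05. These shares of all genes are the background for the counts by list below. Of the called genes, 526 had the same direction in each of the 6 libraries. The nuclei of both groups were chosen by markers, so the counts describe nuclei picked for those markers and not BAMs found without them.

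Genes long used to identify BAMs, other than the markers of the rule, were mostly called higher where they could be tested. Of 25 such genes, 16 passed the filter on low counts, 14 were called higher, none lower, and the median log2 fold change was 3.05. Those near 0 in microglia, such as *Pf4*, could pass that filter only through their BAM counts. The list was also chosen with earlier results of these data known, so the counts describe it and test nothing. *Pf4*, the chemokine platelet factor 4, stood at 376 and 185 CPM in the BAMs of control 1 and 3 and at 228, 218, 149 and 120 CPM in libraries 10 to 13, and at 0 to 14.7 CPM in the microglia of these libraries. Among these tested libraries, no BAM value came near any microglial value (log2 fold change 5.02 ± 0.46 SE, adjusted p = 2.18e-06). Control 2 and 4 were not tested, and *Pf4* rested on 1 UMI in the BAMs of each. *Dab2* was at 1761 and 792 CPM in control 1 and 3 and at 683, 544, 792 and 767 CPM in libraries 10 to 13, against 31.3 to 103 CPM in microglia (log2 fold change 4.11 ± 0.27 SE, adjusted p = 1.76e-07).

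*Rbpj* was at 1950 ± 722 CPM (SD, n = 6) in BAMs and 184 ± 40.7 CPM in microglia, with 1073 CPM in control 3 as the lowest BAM value and 2934 CPM in library 10 as the highest. *Stab1*, a scavenger receptor for modified lipoproteins, was at 514 ± 210 CPM against 49.3 ± 10.5 CPM. *Cbr2* (log2 fold change 3.47), the ectoenzyme *Cd38* (3.46), the C-type lectin *Clec12a* (3.11), *Tgfbi* (2.86), *Gas6* (2.35) and the transcription factor *Maf* (1.31) were also called higher. *Apoe* was called higher as well, at 10375 CPM against 3473 CPM, and stood at 10330 CPM in empty droplets, so free RNA carried it at the BAM level. *Cp* (log2 fold change 0.70, adjusted p = 0.0685) was among the 2 not called, but it passed the threshold in 12 of 21 alternative fits.

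The other 9 genes of that list had too few counts for the test. *Lyve1*, the hyaluronan receptor, had 71 UMIs in 26 BAMs and 4 UMIs in 4 microglia. *Folr2*, folate receptor beta, had 31 UMIs in BAMs and 18 in microglia, *Timd4* 34 and 12, and *Siglec1* 31 and 19, although microglia were the larger group by far. The chemokine gene *Ccl8* had 95 UMIs in 9 BAMs, at 51.8 CPM in control 3, 165 CPM in control 4, 1138 CPM in library 10 and 332 CPM in library 13, and none in the other 4 libraries. Library 10 held 45 of these UMIs in 2 nuclei, and library 13 held 34 of its 36 in 1 nucleus, so few nuclei carried this gene. *Cd209f* had no UMI in BAMs, and 139 nuclei with none allow a level of up to 5.90 CPM.

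The 12 largest differences on the BAM side included 2 genes of the Ms4a family. The 12 were taken from called genes of at least 50 CPM with 1 direction in every tested library. *Ms4a4a* and *Ms4a7* encode four-span membrane proteins and lie close together on chromosome 19 (GRCm39, 11352823 to 11370154 on the plus strand and 11298403 to 11313510 on the minus strand). *Ms4a4a* was at 102 ± 50.9 CPM in BAMs and 1.40 ± 2.17 CPM in microglia (n = 6; log2 fold change 5.75 ± 0.61 SE, adjusted p = 9.47e-06). *Ms4a7* was at 155 ± 64.4 CPM against 7.19 ± 5.16 CPM, and another gene of the cluster, *Ms4a6c*, was at 260 ± 84.5 CPM against 30.7 ± 9.58 CPM. For all 3, the groups did not overlap in the 6 tested libraries. A higher level in each library was a condition of choice for *Ms4a4a* and *Ms4a7*.

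*Rgs18*, a regulator of G-protein signalling (log2 fold change 5.07), *Msr1*, the macrophage scavenger receptor (4.92), *Tlr8*, an endosomal sensor of RNA (4.84), *Aoah*, which inactivates bacterial lipopolysaccharide (4.09), *Cmah* (3.83), *Emilin2* (3.70) and *Clec4a1* (3.64) completed the list with *Pf4*, *Dab2* and *Lyz2*. *Lyz2*, lysozyme, was the most abundant of them and was at 1309 to 3773 CPM in BAMs and 58.5 to 236 CPM in microglia. *Emilin2* was at 120 CPM in BAMs and 8.64 CPM in microglia, and empty droplets (29.8 CPM) and all other retained barcodes (23.7 CPM) lay between them. All 12 were called in every alternative fit in which they passed the filter.

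**Figure D3:**
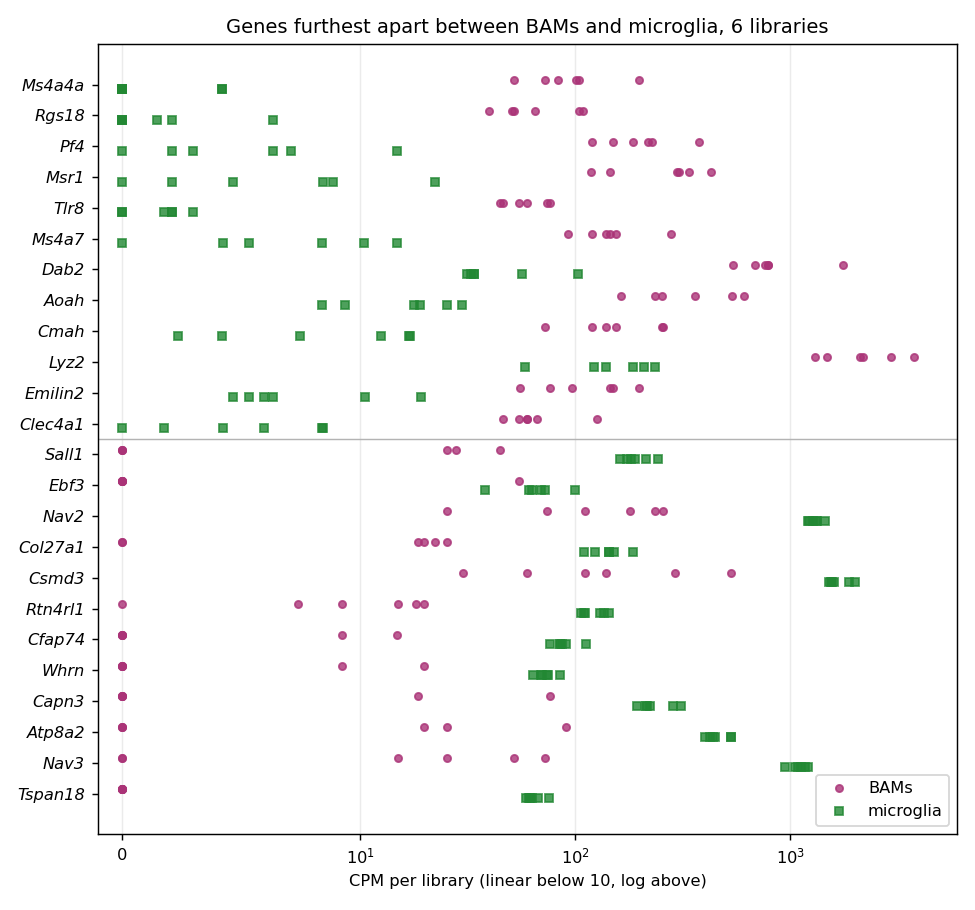
CPM in each of the 6 tested libraries for the 12 genes furthest above and the 12 furthest below microglia, BAMs as circles and microglia as squares, on an axis that is linear below 10 CPM and log above. The genes were chosen for 1 direction in every library, so the side on which the circles lie was set by the choice. Circles lie to the right of the squares in the upper rows, as for *Lyz2* at 1309 to 3773 CPM against 58.5 to 236 CPM, and to their left in the lower rows, apart from 1 BAM value of *Ebf3*.

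MHC class II genes were higher in BAMs. Most of the listed genes load and present peptides from endocytosed proteins to CD4 T cells, whereas *Ciita*, *Cd86* and *Cd72*, also listed, do not. Of 10 in the list, 8 were tested and 6 called higher, with a median log2 fold change of 2.73. *Cd74*, the invariant chain, was at 1780 and 1073 CPM in the BAMs of control 1 and 3 and at 1492, 2050, 2390 and 730 CPM in libraries 10 to 13. Microglia had 60.8 to 371 CPM, highest in control 3, so the groups did not overlap (log2 fold change 3.17 ± 0.31 SE, adjusted p = 4.37e-06). *H2-Aa* (2.79), *H2-Ab1* (2.89), *H2-Eb1* (2.94), the transactivator *Ciita* (2.67) and the peptide exchange subunit *H2-DMb1* (1.33) were called with it, the last in 12 of 18 fits (the one reported and its alternatives). *H2-DMa* (0.79, adjusted p = 0.16) and *Cd86* (0.02) were not called, and *H2-Oa* had no UMI in BAMs.

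The summed MHC class II list was at 2244 CPM in library 13 and 10728 CPM in control 2 at its extremes in BAMs, against 374 to 1211 CPM in microglia, 79.0 to 181 CPM in other retained barcodes and 225 to 443 CPM in empty droplets. Control 2 had 5 BAMs only.

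The promoters of 3 of the called genes are shown because these genes moved together and are known to share promoter elements. The stretches are the 250 bases before the RefSeq start (GRCm38.p6, a build other than that of the counts), 5′ to 3′ on the gene's strand, and capitals mark the Y box letters CCAAT on either strand, written ATTGG on the other.
*H2-Aa* (chr17:34287824-34288073, minus strand): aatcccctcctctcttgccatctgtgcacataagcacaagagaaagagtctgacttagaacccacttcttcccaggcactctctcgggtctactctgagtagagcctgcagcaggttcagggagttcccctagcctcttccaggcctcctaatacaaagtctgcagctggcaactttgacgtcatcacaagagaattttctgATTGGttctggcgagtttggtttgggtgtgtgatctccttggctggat
*H2-Eb1* (chr17:34305617-34305866, plus strand): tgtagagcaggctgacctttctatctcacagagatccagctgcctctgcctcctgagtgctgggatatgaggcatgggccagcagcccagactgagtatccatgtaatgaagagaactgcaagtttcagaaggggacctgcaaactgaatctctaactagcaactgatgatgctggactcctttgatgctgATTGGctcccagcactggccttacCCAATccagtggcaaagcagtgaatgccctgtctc
*H2-DMb1* (chr17:34152941-34153190, plus strand): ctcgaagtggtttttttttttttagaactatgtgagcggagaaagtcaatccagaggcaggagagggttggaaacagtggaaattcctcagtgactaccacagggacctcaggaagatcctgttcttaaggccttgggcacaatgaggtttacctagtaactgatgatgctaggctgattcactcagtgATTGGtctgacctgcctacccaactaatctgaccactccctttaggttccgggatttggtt

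*H2-Aa* and *H2-DMb1* held 1 match each and *H2-Eb1* held 2. The promoter table had entries for 6 of the 10 listed genes, and of the others *H2-DMa*, which was not called, had 1 match in 1 of its 2 entries, while *H2-Oa*, with 1 match, and *Cd72*, with none, had too few counts for the test. The same 5 letters occur in 11120 of 32851 promoters of this length (33.8%), so a match describes the sequence and marks no site.

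Scavenger and endocytic receptors clear lipoproteins, apoptotic cells and glycoproteins. Most of those called were higher in BAMs, but *Dab2*, *Stab1* and *Colec12* were already counted in the list of BAM genes above. Outside that list, *Msr1* and *Cd68* were called higher and *Mertk* lower. Of 22 listed, 9 were tested, with a median log2 fold change of 1.38, 5 were called higher (*Msr1*, *Dab2*, *Stab1*, *Colec12* and the lysosomal glycoprotein *Cd68*) and 1 lower. *Colec12*, a collectin that binds sugars on microbes, was at 470 ± 189 CPM in BAMs and 131 ± 38.4 CPM in microglia (log2 fold change 1.79). The one called lower was *Mertk*, a receptor for apoptotic cells, at 367 ± 139 CPM in BAMs and 759 ± 78.3 CPM in microglia (log2 fold change -1.14, called lower in 20 of 22 fits and higher in 1), while *Gas6*, a secreted bridge between *Mertk* and its targets, was at 219 ± 104 CPM in BAMs and 38.7 ± 14.8 CPM in microglia. *Mgl2*, a galactose lectin, had too few counts for the test, with 36 UMIs in BAMs and 11 in microglia. *Cd209a*, which is also in the dendritic cell list, had 7 UMIs in 3 BAMs and none in microglia. This is 17.3-fold higher against a floor of 3 counts over the group, which leaves out the counting error of the 7 UMIs.

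Complement genes were led by the anaphylatoxin receptors. *C5ar1* was at 154 ± 51.6 CPM in BAMs and 31.4 ± 8.47 CPM in microglia, and *C3ar1* at 114 ± 62.1 CPM against 33.6 ± 9.38 CPM. The 3 chains of C1q, the trigger of the classical pathway, had log2 fold changes of 0.83 (*C1qa*), 0.80 (*C1qb*) and 0.80 (*C1qc*), and all 3 were called higher, *C1qc* in 16 of 22 fits. *Itgam*, a chain of complement receptor 3, was called lower (-0.90) in 14 of 22 fits and higher in 1. In all, 14 genes were listed, 9 tested, 5 called higher and 1 lower. *Vsig4*, a complement receptor of tissue macrophages, had 24 UMIs in BAMs and 3 in microglia.

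Among 26 chemokines, cytokines and their receptors, 13 were tested, 4 were called higher and 1 lower. *Ccr2*, the receptor that brings monocytes into tissue, was at 119 and 333 CPM in the BAMs of control 1 and 3 and at 177, 200, 493 and 148 CPM in libraries 10 to 13, against 12.4 to 61.1 CPM in microglia (log2 fold change 2.84 ± 0.27 SE, adjusted p = 4.23e-06). *Ccl12* (log2 fold change 3.09) rested in large part on library 12, at 1031 CPM, with 19.8 to 228 CPM in the other 5. *Ccr1* (1.87) and *Ccl6* (1.56, in 10 of 14 fits) were called higher, and the G-CSF receptor *Csf3r* was called lower (-1.80). *Ccl2* (30 and 17 UMIs in BAMs and microglia) and *Ccl7* (27 and 8 UMIs) were too low to test.

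Growth and guidance factors gave 4 genes higher and 1 lower out of 11 tested and 20 listed. *Gas6*, 1 of the 4, was already counted among the BAM genes above. *Nrp1*, the coreceptor of semaphorins and VEGF, was at 630 ± 193 CPM in BAMs and 180 ± 22.6 CPM in microglia, with no overlap. *Sema3a*, a ligand of *Nrp1*, was called (log2 fold change 1.69), but it was at 0 CPM in library 10 and overlapped microglia, and it was called in 14 of 19 fits. *Igfbp4* (1.44) was higher in 13 of 17 fits and *Sema6d* (-0.95) lower in 14 of 22. *Igf1* had 47 UMIs in BAMs and 32 in microglia, a pooled level of 92.4 CPM against 8.46 CPM, and was too low for the test.

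In lipid handling, 4 of 13 tested genes (20 listed) were called higher, namely *Apoe*, the cholesterol exporter *Abca1* (log2 fold change 1.32), the RNA editor of apolipoprotein B, *Apobec1* (1.28), and *Pltp* (1.07, in 12 of 21 fits), and *Ldlrad4* was called lower (-0.90). *Apoe* was already counted among the BAM genes. Of 12 listed genes of iron and heme handling 6 were tested. *Ftl1* alone was called (0.69, in 17 of 22 fits), and it was higher in empty droplets (771 CPM) than in BAMs (548 ± 73.6 CPM). Of all tested genes 9.61% were called, so 6 genes say little. Among those with too few counts, *Hmox1* was found in 5.76% of BAMs and 1.08% of microglia, and *Blvra* in 12.2% and 4.32%. *Steap3* was found in 10.8% and 3.32%, *Tfrc* in 10.8% and 6.56%, and *Slc40a1* in 4.32% and 8.42%. *Hpx* was found in no BAM. The median log2 fold change of these lists was 0.20 and -0.08.

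Among transcription factors, 28 were listed, 22 tested, 4 called higher and 2 lower. *Rbpj* (log2 fold change 3.29), *Maf* (1.31), *Hivep2* (1.3) and *Foxp1* (0.60) were called higher and *Sall1* (-3.24) and *Bach2* (-0.74) lower. Of these, *Rbpj* and *Maf* are also in the list of BAM genes, and *Sall1* is in that of microglial genes. *Foxp1* was called in 15 of 22 fits and *Bach2* in 12 of 22, and *Bach2* lost its call without control 1, control 3 or library 13. *Spi1*, the master factor of myeloid cells, was at 232 ± 109 CPM against 154 ± 27.3 CPM and was not called. Nor were *Runx1* (-0.05), *Mef2a* (-0.26) and *Irf8* (-0.75, adjusted p = 0.0544). *Irf8* passed the threshold as lower in 7 of 21 alternatives and as higher in 1. *Runx1* passed it as higher in 2 of 21 and *Mef2a* in 1 of 21.

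Microglial genes were lower in BAMs. Of 24 listed genes present in the files, 21 were tested, 14 were called lower and 3 higher, with a median log2 fold change of -1.23. Those low in BAMs, such as *Sall1*, passed the filter on low counts through microglia. *Sall1* was at 0 and 44.4 CPM in the BAMs of control 1 and 3 and at 25.3, 0, 0 and 27.7 CPM in libraries 10 to 13, against 162 to 241 CPM in microglia (log2 fold change -3.24 ± 0.43 SE, adjusted p = 7.6e-05). *Tmem119* was at 18.0 ± 10.3 CPM against 127 ± 37.0 CPM and *Selplg* at 75.5 ± 26.6 CPM against 470 ± 69.8 CPM. Both groups were apart in every library. *Siglech* (-2.04), the TGF-beta receptor *Tgfbr1* (-1.23), *Gpr34* (-1.13) and *Cst3* (-0.81) were called lower with smaller differences. *Tgfbr1* was called lower in 20 of 22 fits and *Gpr34* in 14 of 22, and each was called higher in 1.

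The 3 called higher in BAMs were *Fcrls* (log2 fold change 2.26), the leukotriene synthase *Ltc4s* (1.13) and the chemerin receptor *Cmklr1* (0.94). *Ltc4s* was called in 15 of 21 fits and *Cmklr1* in 12 of 22, the latter not without control 1 or library 10, 11 or 13. *Fcrls* was at 126 to 396 CPM in BAMs and 23.0 to 67.0 CPM in microglia, opposite to the list it was taken from. *Sall3* and *Slc2a5* had no UMI in any BAM and 175 and 144 UMIs in microglia, so they were at least 7.85-fold and 6.46-fold lower against the floor of 3 counts over the group.

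The 12 smallest fold changes, chosen with the same limits on level and direction, were *Tspan18*, *Nav3*, *Atp8a2*, *Capn3*, *Whrn*, *Cfap74*, *Rtn4rl1*, *Csmd3*, *Col27a1*, *Nav2*, *Ebf3* and *Sall1*. *Nav3* and *Nav2* encode neuron navigators, which bind microtubule ends. *Nav3* was at 27.4 ± 29.3 CPM in BAMs and 1100 ± 93.9 CPM in microglia (log2 fold change -5.28 ± 0.38 SE, adjusted p = 2.19e-07), and *Nav2* was at 147 ± 92.2 CPM against 1301 ± 87.0 CPM. *Tspan18* had no UMI in the BAMs of the 6 tested libraries, against 59.0 to 75.6 CPM in microglia, but its 4 UMIs in control 2 and 4 gave 96.6 and 70.5 CPM, at the microglial level. Its fitted value (-7.25) rests on these zeros, gives no bound, and was -2.98 with all 8 libraries. *Csmd3* was also abundant in OLs, at 1110 CPM, and was at 193 ± 189 CPM in BAMs and 1685 ± 202 CPM in microglia. For *Ebf3*, the highest BAM value (54.4 CPM) lay above the lowest of microglia (38.1 CPM).

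**Figure D4:**
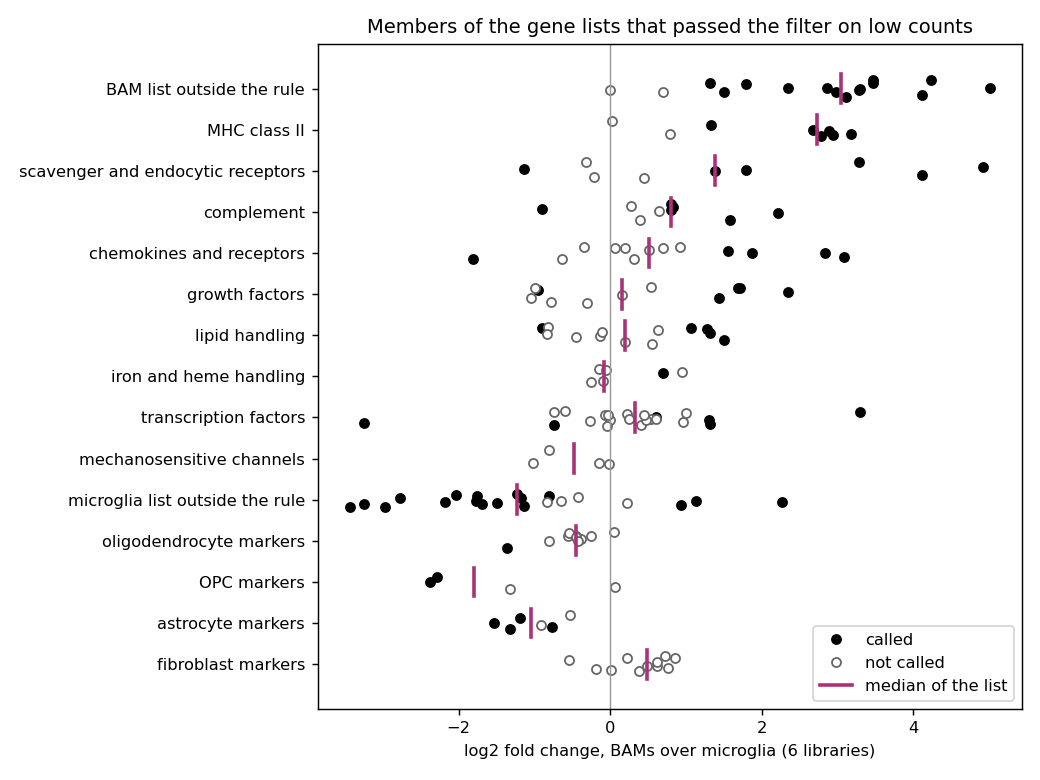
log2 fold change of BAMs over microglia for each tested gene of the lists, filled where called and open where not, with the median of each list as a bar. BAM genes outside the rule (median 3.05) and the MHC class II list (2.73) lie to the right, and microglial genes (median -1.23) mostly to the left. Fibroblast markers (0.48) hold no called gene in the fit shown. Genes near 0 in 1 group passed the filter on low counts through the other group.

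No tested marker of OLs, astrocytes, OPCs, fibroblasts or endothelial cells was called higher in the reported fit. Of all tested genes 4.39% were, so lists this short would hold few by that share alone. OL markers (10 of 10 tested) included 1 called lower, *Prr5l*, and 9 not called, and summed to 3103 to 5209 CPM in BAMs and 3700 to 7964 CPM in microglia. Astrocyte markers included 4 called lower of 6 tested, and markers of oligodendrocyte precursor cells (OPCs) 2 of 4, *Sox6* and *Tnr*. None of 11 tested fibroblast markers and none of 4 tested endothelial markers was called. In alternative fits, *Dcn* was called higher in 6 of 21 and *Slc7a11* in 3 of 19. *Pdgfrb* was called higher in 1 of 13 alternatives, *Trpm3* higher in 1 of 21 and *Adamtsl3* lower in 1 of 12. Without the 13 nuclei rich in fibroblast RNA, 329 genes were called higher and 361 lower of 4824 tested, and 521 of the 560 original calls still tested were called again. Of the genes named here, *Bach2* was no longer called without them (log2 fold change -0.60, adjusted p = 0.0594), while *Cp* (0.76, adjusted p = 0.0314) and *H2-DMa* (1.07, adjusted p = 0.0405) were called higher. The log2 fold change moved to 5.62 for *Pf4*, 5.19 for *Dab2*, 2.66 for *Colec12*, 2.26 for *Ccl12*, -3.03 for *Sox6*, -4.38 for *Rtn4rl1* and -4.46 for *Sall1*, each by more than 1.5 times as a fold. *Rgs18*, *Cbr2*, *Cd38*, *Ccr1*, *Ccl6*, *Igfbp4* and *Sema3a* no longer passed the filter on low counts.

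Most defining markers of other blood cells were at 0 or low. *Ly6c2*, *S100a9*, *Retnlg*, *Ly6g* and *Chil3*, which define monocytes and neutrophils, had no UMI in BAMs, but were found in 8 microglia at most, so zeros in 139 nuclei say little. The list of 10 such genes, which includes *Ccr2*, summed to 0 to 538 CPM in BAMs and 67.2 to 132 CPM in microglia and was higher in BAMs in 7 of 8 libraries, with *S100a8* in 3 BAMs (2.16%) and 5 microglia (0.386%). In BAMs 5 of 6 mast cell genes and the B cell genes *Cd79a*, *Ms4a1* and *Pax5* had none. The T cell list summed to 0 to 59.3 CPM, with 2 of its 7 genes at 0, *Skap1* among them. *Bank1*, in the B cell list, was nevertheless called higher, at 277 ± 93.4 CPM against 26.4 ± 14.5 CPM. Of 9 dendritic cell genes 1 was tested and not called, *Ccr7* was at 0, and *Flt3* was found in 3 BAMs (2.16%) and 38 microglia (2.93%). All 3 of these BAMs also had *Ccr2*, which was found in 30 BAMs. *Kmo* was found in 16 BAMs (11.5%) and 42 microglia (3.24%), and *Zbtb46* in 10 (7.19%) and 71 (5.48%). The dendritic cell list summed to 50.6 to 224 CPM in BAMs and 79.7 to 143 CPM in microglia, and was the higher in BAMs in 6 of 8 libraries. The part of these cell types in the results was not tested.

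BAMs were not uniform in what the rule did not read. At least 1 UMI of *H2-Aa*, *H2-Ab1*, *H2-Eb1* or *Cd74* was found in 99 of 139 BAMs (71.2%) and in 246 of 1295 microglia (19.0%). At least 1 UMI of *Lyve1*, *Folr2* or *Timd4*, genes of long-lived tissue macrophages, was found in 48 BAMs (34.5%) and 25 microglia (1.93%). *Ccr2* was found in 30 BAMs (21.6%) and 44 microglia (3.4%). With every nucleus thinned to 1000 UMIs, these shares were 61.2%, 20.9% and 12.9% in BAMs and 11.1%, 0.772% and 2.01% in microglia. None of these genes was detected in 18 BAMs.

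*Ccr2* and the *Lyve1* set were seldom found together, and *Ccr2* went with MHC class II. Of the 30 *Ccr2*-positive BAMs, 29 also had MHC class II UMIs and 3 had a UMI of the *Lyve1* set. Of the 48 BAMs with the *Lyve1* set, 27 had MHC class II. Of the 99 MHC class II positive BAMs, 29.3% had *Ccr2* and 27.3% the *Lyve1* set. Of the 40 without MHC class II, 2.5% had *Ccr2* and 52.5% the *Lyve1* set. These are counts over nuclei of pooled libraries, given without a test.

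Genes outside the rule differed between the 30 *Ccr2*-positive and the other 109 BAMs, given here without a test. Pooled over libraries, *Pf4* was at 38.7 CPM in *Ccr2*-positive and 238 CPM in the other BAMs and was lower in each of the 7 libraries that had both. *Maf* (296 against 742 CPM) and *Rbpj* (786 against 2168 CPM) were lower in 6 of 7. *Folr2* and *Ccl8* had no UMI in *Ccr2*-positive BAMs and *Lyve1* had 1, while *Timd4* had 9 (58.0 against 70.8 CPM). *Flt3*, of the dendritic cell list, was found in 3 of the 30 and *Plac8*, of the monocyte list, in 2. Neither was found in the other 109. Whether *Ccr2*-positive nuclei include monocytes or dendritic cells was not tested. The markers that the rule read had *F13a1* at 316 against 1848 CPM, *Mrc1* at 464 against 1426 CPM and *Cd163* at 51.6 against 357 CPM, which is a description of the selected nuclei.

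Leaving out the 13 nuclei rich in fibroblast RNA left 27 *Ccr2*-positive and 99 other BAMs. *Pf4* was then at 65.3 against 265 CPM, lower in 7 of 7 libraries, and *Maf* at 305 against 807 CPM, lower in 6 of 7. *Timd4* was at 98.0 against 92.1 CPM, so its direction turned. *Lyz2*, in contrast, was at 2678 against 2830 CPM and lower in 4 of 7 libraries. *Cx3cr1* was at 277 against 325 CPM in all nuclei and at 425 against 391 CPM without those 13, so its direction turned with them. The median depth was 2745.5 UMIs in *Ccr2*-positive and 2394 in the other BAMs. Fibroblast RNA moved with this split as well, with *Trpm3* at 6457 CPM in the *Ccr2*-positive nuclei and 3207 CPM in the others.

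BAMs with and without MHC class II were compared in the same way, without a test on single genes. *Pf4* was at 367 CPM in the 40 nuclei without and 117 CPM in the 99 with MHC class II, and *Maf* at 857 against 526 CPM, each higher without it in 6 of 8 libraries. *Timd4* went the other way, at 57.1 CPM without and 69.9 CPM with it. Of the markers that the rule read, *F13a1* was at 2620 against 987 CPM and *Cd163* at 580 against 163 CPM. Of 95 *Ccl8* UMIs, 73 were in 6 of the 40 nuclei without MHC class II, 28 and 34 of them in single nuclei, the latter rich in fibroblast RNA. In the *Lyve1* group (*Lyve1*, *Folr2*, *Timd4* and *Colec12*) most UMIs were of *Colec12*, 172 with and 79 without MHC class II. *Lyve1* had 46 and 25, *Folr2* 16 and 15, and *Timd4* 27 and 7. Without the nuclei rich in fibroblast RNA, *Colec12* had 61 and 57 UMIs. The summed level of this group was compared within libraries that had at least 5 nuclei of each kind. It was at 657 CPM with and 1430 CPM without MHC class II in control 3, 537 and 756 CPM in library 10, and 522 and 1549 CPM in library 13.

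The level was lower with MHC class II in 3 of 3 libraries (difference -673 CPM, exact paired permutation test, two-sided, p = 0.25, n = 3), and 0.25 is the smallest p that 3 pairs allow. With at least 3 nuclei of each kind it was lower in 4 of 5 libraries (difference -335 CPM, exact p = 0.312). The difference did not pass a test at this number of libraries. Fibroblast RNA also differed between the kinds, with *Trpm3*, of the fibroblast list, at 5324 CPM with and 653 CPM without MHC class II, and without the nuclei rich in it the difference was -754 CPM in 3 libraries.

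**Figure D5:**
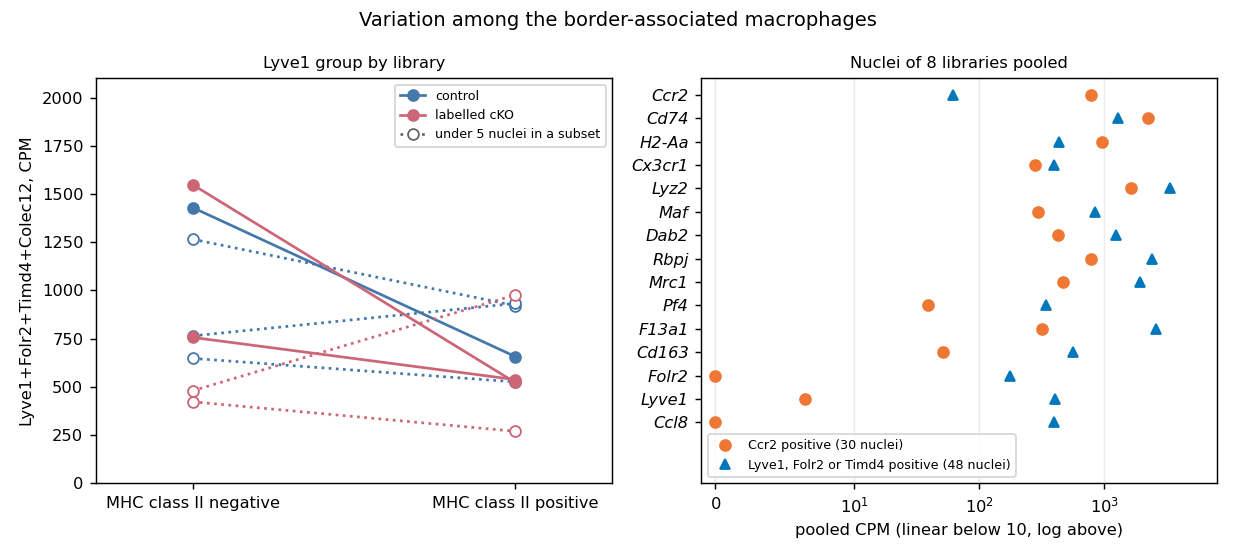
Left, summed CPM of the *Lyve1* group in MHC class II negative and positive BAMs of each library, joined by a line, filled for the 3 libraries with at least 5 nuclei of each kind and open with dotted lines for the others. Right, pooled CPM of single genes in 30 *Ccr2*-positive BAMs (circles) and 48 BAMs with *Lyve1*, *Folr2* or *Timd4* (triangles), on an axis that is linear below 10 and log above, with *Pf4* at 38.7 against 338 CPM, where the 2 sets share 3 nuclei and *F13a1*, *Mrc1* and *Cd163* were read by the selection rule.

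No gene was called between genotypes within BAMs. The 2 control libraries and 4 libraries labelled cKO with at least 10 BAMs gave 1723 testable genes, of which 0 (0%) were called higher and 0 lower in the libraries labelled cKO by edgeR's quasi-likelihood test, with 38 at an unadjusted p under 0.05. DESeq2 called 0 of 8505 genes, with 48 at an unadjusted p under 0.05. Differences were thus not detectable at this depth, which does not show that they are absent.

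The 3 genes of each direction with the smallest p are given as not called (each with adjusted p = 0.999). Being picked for the smallest p, these genes lie apart in the tested libraries by that choice. *Mcl1*, a survival protein, was at 119 and 66.6 CPM in control 1 and 3 (6 and 9 UMIs) and at 202, 435, 299 and 249 CPM in libraries 10 to 13 (log2 fold change 1.80). *Ppp1r21* (1.29) and *Arsb* (1.03) were next. *Phldb2* (-2.43) was at 653 and 496 CPM in control 1 and 3 and at 0, 200, 105 and 83.1 CPM in libraries 10 to 13, *Bmp6* (-1.80) at 495 and 570 CPM against 25.3 to 286 CPM, and *Dlc1* (-1.48) at 277 and 525 CPM against 90.7 to 194 CPM. In control 2 and 4, which had too few BAMs for the test, *Phldb2* was at 0 and 329 CPM, *Bmp6* at 0 and 541 CPM, *Dlc1* at 0 and 94.0 CPM and *Mcl1* at 0 and 94.0 CPM, so over all 8 libraries the first 3 overlapped between the groups. *Phldb2*, *Bmp6* and *Dlc1* failed the filter on low counts once the nuclei rich in fibroblast RNA were left out.

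Both Piezo channels rested on few UMIs in BAMs, with *Piezo2* found in 9 of 139 nuclei (6.47%) and *Piezo1* in 21 (15.1%). *Piezo2* had 0, 0, 7 and 23 UMIs in control 1 to 4 and 1, 2, 1 and 5 UMIs in libraries 10 to 13. All 23 UMIs of control 4 (541 CPM) came from 1 nucleus of 18255 UMIs, which also held 4.98 fibroblast marker UMIs per 1000. In the 6 tested libraries *Piezo2* was at 29.1 ± 19.6 CPM in BAMs and 57.3 ± 28.1 CPM in microglia (log2 fold change -0.81, adjusted p = 0.28), below its 314 CPM in all other retained barcodes and below its 59.8 CPM in empty droplets. Over 17 alternative fits its log2 fold change ran from -3.34 to 0.18, and it was called lower in 2. *Piezo1* was at 49.9 ± 25.8 CPM in BAMs and 49.5 ± 12.7 CPM in microglia (log2 fold change -0.02, not called here and called higher in 1 of 20 alternatives). It was above the 2.68 to 5.44 CPM of empty droplets in 6 of 8 libraries and had no UMI in the 20 BAMs of control 1 and 2. Of 7 mechanosensitive channel genes, 4 were tested and none was called. Of all tested genes 9.61% were called, so 4 genes say little.

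Of the markers the study used for microglia, *Aif1*, which encodes IBA1, was at 108 ± 45.9 CPM in BAMs and 102 ± 31.7 CPM in microglia (log2 fold change -0.01). *Cd68* was at 119 ± 68.9 CPM in BAMs and 41.0 ± 13.3 CPM in microglia, and was called higher (log2 fold change 1.38 ± 0.33 SE, adjusted p = 0.0118), in 18 of 21 fits and not without control 1. Of the genes named by the study for cells of the OL lineage, *Tnr* was called lower in BAMs (-2.29), *Lama2* (0.09), *Cacna2d3* (-0.70) and *Pcdh15* (-0.96) were not, and *Pde3a*, *Pdgfc*, *Olig2* and *Cspg4* had too few counts.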

How the data were processed

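Nuclei of pooled mouse ONs were profiled in 8 libraries (4 per genotype), grouped by their labels. The deposited counts are raw UMI counts per gene and barcode, made by the authors with Cell Ranger 7.0.0 on GRCm39, before their removal of ambient RNA and doublets, which was not repeated here. Gene positions came from GENCODE vM39, which matched 33185 of 33696 gene IDs. BAMs and microglia were selected as stated, summed per library (at least 10 nuclei and 1000 counts) and tested in edgeR 4.0.16 (R 4.3.3) with TMM factors, filterByExpr and Benjamini-Hochberg adjustment. The genes of the rule and mitochondrial genes were left out. Shares and the *Lyve1* group were compared with exact permutation tests (scipy 1.17.1). A CPM is the summed UMIs of a gene per 1000000 UMIs of the group.

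Named genes were members of fixed gene lists, the 12 largest and 12 smallest fold changes among called genes with 1 direction in every library and at least 50 CPM, genes of the study and, for genotype, the 3 genes of each direction with the smallest p. Predicted genes were counted but not named (64 called). Some members of the lists are counted but not reported here by name. The members and lists were chosen with earlier results of these data known.

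Alternatives covered DESeq2 1.42.0, size factors, low counts, depth, *St18*, marker UMIs, Scrublet (in scanpy 1.11.5), sum size, block, microglia definition and single libraries. Free RNA, nuclei over 3 times the median UMI count, fibroblast RNA and empty droplets of 200 to 500 UMIs (10 to 100 had been planned) were chosen after seeing the data. The test was checked on simulated counts. Genes near 50 CPM rest on few counts per library, and intervals cover counting error only.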

Additional observations from a re-analysis of the deposited data

Results flagged for a closer look

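Values were marked by setting the gap of the highest or lowest of 4 libraries against the range of its group, over 28 groups of values, and chance alone would mark about 1 in 20 of them. *Piezo2* in BAMs was at 541 CPM in control 4 against 0 to 51.8 CPM in the other 3 control libraries, and came from 1 nucleus. The pituitary hormone list stood at 2242 CPM in the BAMs of control 3 against 39.6 to 96.6 CPM in the other controls, with *Gh* in 26 and *Prl* in 24 of its 30 BAMs, and its empty droplets held 7849 CPM. The same list was at 109 CPM in library 11 against 0 to 9.24 CPM in the other libraries labelled cKO, from 6 *Prl* UMIs in 2 nuclei. The monocyte and neutrophil list was at 538 CPM in the BAMs of library 12 against 166 to 218 CPM in the other libraries labelled cKO, of which *Ccr2* made up 493 CPM.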

How the results depend on the processing

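The 2 calls of genes against microglia moved most with the definition of the groups. With no limit on *St18* in microglia, 742 genes were called higher and 1155 lower in BAMs, and with no macrophage gene required of microglia 1110 and 2483. Fewer genes passed with nuclei thinned to 1000 UMIs (160 and 199) or with at least 2000 UMIs (145 and 154), and 206 were called lower with at least 3 marker UMIs. Without the filter on low counts 717 were called lower. Without the replicate block 294 were called higher and 376 lower, and leaving out 1 library gave 202 to 270 and 224 to 336. With no macrophage gene required, 10 called list genes given here changed sign, and *Gpr34*, *Itgam*, *Mertk* and *Tgfbr1* were then called higher. The 10 were *Csf3r* (0.52), *Cst3* (0.39), *Gpr34* (0.91), *Itgam* (1.39), *Itgb5* (0.43), *Ldlrad4* (0.55), *Mertk* (0.90), *Olfml3* (0.011), *Siglech* (0.32) and *Tgfbr1* (0.75). *Irf8* (1.46), *Mef2a* (1.09), *Runx1* (2.23) and *Piezo1* (1.72) were also above 0. They were not called in the reported fit, but each was called higher in at least 1 alternative. *Sema6d* changed sign (0.48) after thinning. Of the 24 genes furthest apart, 22 were called in each fit that tested them, *Rtn4rl1* and *Ebf3* being lost with no macrophage gene required.

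Between genotypes, 6 genes were called higher and 6 lower without the filter on low counts, 1 and 32 with at least 3 marker UMIs (1 control library), and 0 to 1 lower when 1 library was left out, the 1 being *Gh* without control 1. The lone control library is then assumed to vary like the others. The difference in share of retained barcodes was -0.0199 with the rule applied after thinning, and -0.0249 to 0.148 with 1 library left out. That among BAMs and microglia was -0.668 after thinning, -0.711 with at least 2000 UMIs, -0.0172 with at least 3 marker UMIs, and -1.87 to 2.61 with 1 library left out. The *Lyve1* group difference kept its sign, at -900 to -496 CPM with 1 library left out and -315 CPM (lower in 3 of 4 libraries) after thinning. The cause of these moves was not tested.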

Other observations

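Among the 139 BAMs, a single nucleus held 9.13% to 42.9% of the BAM counts of its library, the most in control 4, so levels in libraries with few BAMs follow single nuclei. The neuron marker list was at 5188 CPM in the BAMs of library 11 and at 83.1 to 870 CPM in those of the other 7 libraries.

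Without the filter on low counts, the 6 genes called higher in the BAMs of the libraries labelled cKO were *Ccl8*, *Crip1*, *Or10ak16*, *Sgcz*, *Cdh18* and *Gm47283*, and the 6 called lower were *Gh*, *Prl*, *Phldb2*, *Slc7a11*, *Dgkb* and *Chsy3*, named here after their values were seen. *Gh* and *Prl* are pituitary hormones that were high in the empty droplets of control 3. Of the 9 BAMs with *Ccl8*, 4 were in libraries 10 and 13.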
